A study of Mus musculus with 4 samples.

Results

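The granins and the enzymes that process prohormones were followed through the cells of the BNST, the bed nucleus of stria terminalis, which belongs to the extended amygdala and is rich in peptide-making inhibitory neurons. The set holds 10 listed genes, Chga, Chgb, Scg2, Scg3 and Vgf (granins), Pcsk1 and Pcsk2 (convertases), Scg5 and Pcsk1n (their binding partners) and Cpe (a carboxypeptidase), and all 10 were found among the 20136 genes of the deposited tables. The list was drawn up by function, but with earlier results of these data known. Counts of members beside the share of all genes are therefore descriptions of a chosen list. None of the 10 genes was used to sort cells into types. The data were 4 Drop-seq libraries, in which droplets pair single cells with barcoded beads and RNA molecules are counted by unique molecular identifiers (UMIs) read near the 3′ end of the transcript. Each library came from tissue punches of 6 pooled male wildtype C57BL/6J mice (24 mice in all) housed under a reversed light cycle with free access to chow. No age, treatment or genotype contrast is given in the labels. Every comparison below is therefore between kinds of cells within the same 4 libraries. The p-values rest on a spread between these pools that the test estimates with information shared over all genes. They do not measure the spread of each gene by itself. The series as a whole concerns neurons that make prepronociceptin, the product of Pnoc.

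Neuropeptides and peptide hormones are made as larger precursors that are sorted into dense-core granules. Granins are acidic proteins that aggregate in the secretory pathway and help build these granules, and some of them are themselves cut into active peptides. The convertases Pcsk1 and Pcsk2 cut precursors after pairs of basic residues, Cpe then trims the exposed basic residues, and 2 small partners control the convertases, since the Scg5 product (7B2) is a chaperone of Pcsk2 and the Pcsk1n product (proSAAS) inhibits Pcsk1.

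Several of these genes are known for a cyclic AMP response element near the start of transcription, so the palindrome TGACGTCA was searched in the windows from 250 bases before to 50 bases after the RefSeq start sites (GRCm38.p6). Of the members, 8 had an entry in the RefSeq promoter table. The palindrome, which reads the same on both strands, was found in 3 of these 8, whereas 1.79% of all 32851 promoters in the table held it. The 30 bases around it are shown for these 3, Scg2, Chgb and Pcsk1, on the strand of the gene with the motif in capitals. Chga is shown as 1 of the 4 members, with Scg3, Scg5 and Pcsk2, whose windows hold TGACG but not the palindrome. The motif begins 68 bases before the start site in Scg2 (chr1:79440076-79440105, minus strand), 72 in Chgb (chr2:132781559-132781588, plus strand), 78 in Pcsk1 (chr13:75089768-75089797, plus strand) and 44 in Chga (chr12:102554885-102554914, plus strand). Although upstream of the RefSeq start sites, the Scg2 and Chgb stretches overlap an exon of the same gene in GENCODE vM21, and the other 2 overlap none.
Scg2: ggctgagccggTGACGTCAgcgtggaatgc
Chgb: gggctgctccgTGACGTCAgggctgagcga
Pcsk1: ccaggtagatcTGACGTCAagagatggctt
Chga: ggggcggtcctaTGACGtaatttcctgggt
The shorter sequence TGACG, searched on both strands and contained in every TGACGTCA, was found in 7 of the 8 members and in 20.8% of all promoters, and Pcsk1n was the member without it. These matches describe letters in a window and do not show that a factor binds there.

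The 4 libraries together held 14018026 UMIs over 10200 barcodes (2640399 to 5652342 per library). Filters on detected genes and mitochondrial UMIs and the removal of 58 called doublets left 4181 cells (837 to 1281 per library, median 1849 UMIs per cell), and no barcode among these was shared between libraries, although 20 pairs of identical barcodes occurred among all 10200. Cells were sorted by UMIs of marker genes, a step called gating here. The gates gave 2517 neurons, 929 oligodendrocytes, 115 oligodendrocyte precursors, 411 astrocytes, 47 endothelial cells, 14 mural cells or fibroblasts and 10 microglia. A further 138 cells passed no gate. The gated neurons had a median of 3205 UMIs, oligodendrocytes 1388, precursors 1000 and astrocytes 813. Levels are given as CPM, the UMIs of a gene per 1000000 UMIs of that kind of cell in 1 library, as mean ± SD over libraries. UMI counts at the 3′ end do not rank genes by abundance, so levels are compared for 1 gene between kinds of cells and not between genes.

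Most of the set marked neurons, but the set was not neuronal as a whole. Against oligodendrocytes, all 9 members that could be tested were higher in neurons, beside 73.8% of all 6272 genes tested that differed and 39.8% that were higher (edgeR quasi-likelihood test, Benjamini-Hochberg adjusted p under 0.05). The median log2 difference was 3.63 over the members and 0.10 over all genes. Against astrocytes, 7 of the 9 were higher and 2, Cpe and Scg3, were lower, where 64.2% of genes differed (35.7% higher and 28.6% lower). Against oligodendrocyte precursors 6 of 9 were higher (43.8% of genes differed, 26.1% were higher), and Cpe, Scg3 and Pcsk2 did not pass the test. Against the mean of the 3 glial types, taken on the log scale with equal weights, 8 of 9 were higher (68.1% of genes differed, 40.9% were higher). Cpe (0.36, SE 0.12) counts among the 8 only because of this scale. It stood at 38.2 CPM in oligodendrocytes and 629 in precursors, but at 4133 in astrocytes, above neurons. Its call was not past the test without library 1 (0.31, adjusted p = 0.059 by edgeR). The tenth member, Pcsk1, had too few UMIs to pass the filter on low counts and was not tested. Without that filter 10 of 10 members were past the test against the glial mean, and 6802 genes differed. Pcsk1 there rests on 1 UMI in oligodendrocytes, 2 in precursors and none in astrocytes.

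**Figure D1:**
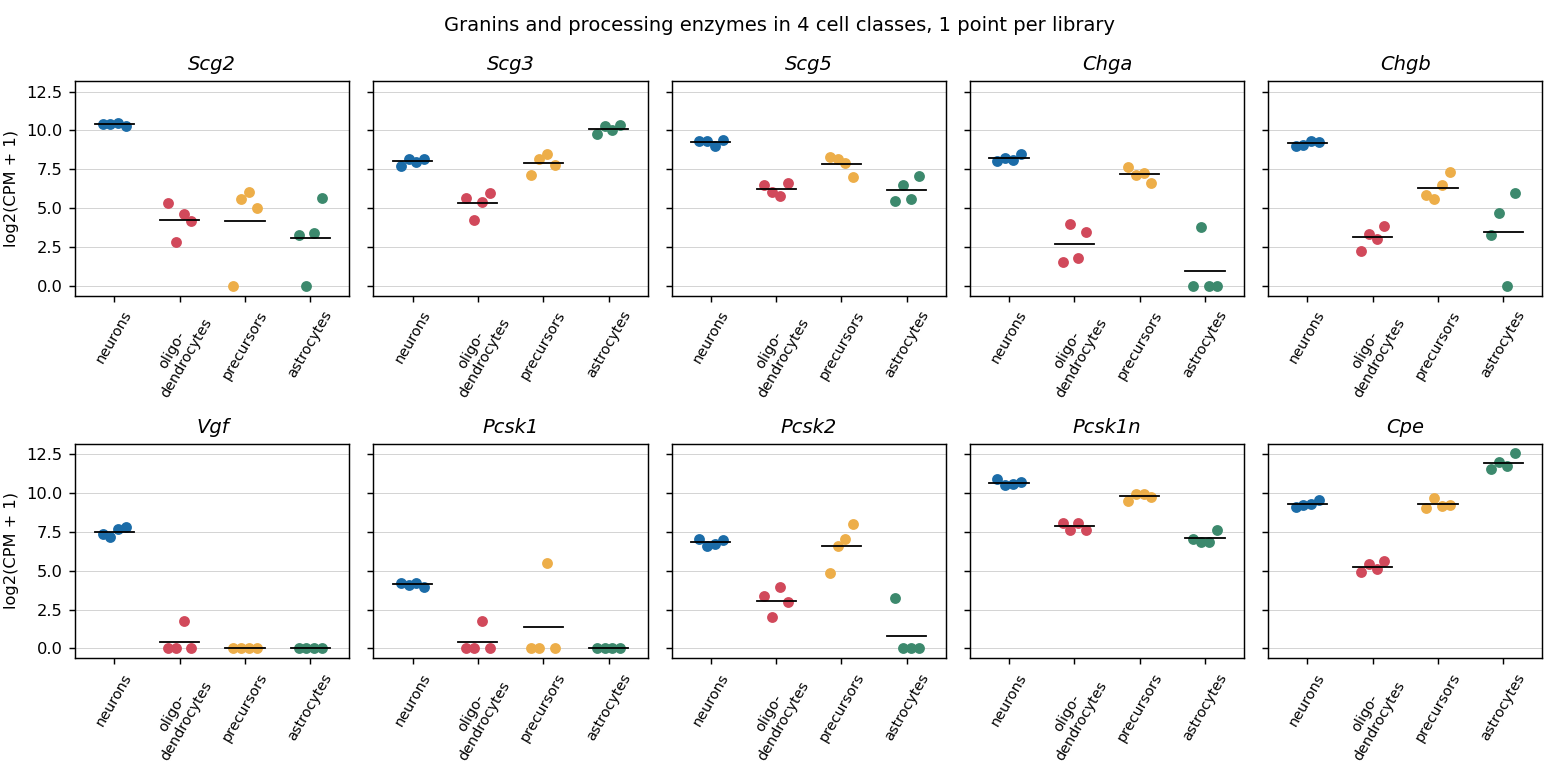
Level of each member, as log2(CPM + 1), in neurons, oligodendrocytes, oligodendrocyte precursors and astrocytes, with 1 point per library and a line at the mean of the log values. Neurons lie above all 3 glial types for Scg2 and Chgb, whereas astrocytes lie above neurons for Cpe and Scg3 in all 4 libraries.

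Scg2, the gene of secretogranin II and the source of the peptide secretoneurin (chr1:79434669-79440120, minus strand, GENCODE vM21 on GRCm38), stood at 1372, 1350.3, 1431 and 1238 CPM in the neurons of libraries 1 to 4. Its level was 21.5 ± 13.8 CPM in oligodendrocytes (n = 4), and only 5 Scg2 UMIs fell in all precursors and 6 in all astrocytes. Every library of neurons was far above every glial value, with a log2 difference of 5.70 (SE 0.17) from the mean of the glial types. Chgb (chromogranin B, a granule core protein; chr2:132781278-132795079, plus strand) was at 574.7 ± 64.0 CPM in neurons (n = 4), 4.43 (SE 0.18) on the log2 scale above the glial mean. Chga (chromogranin A, its relative; chr12:102554969-102565028, plus strand) was at 294.2 ± 42.4 CPM in neurons and 4.26 (SE 0.24) above the glial mean. Oligodendrocytes held 10 Chga UMIs and astrocytes 1, but precursors held 20.

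Vgf, an activity-regulated granin (chr5:137026392-137033351, plus strand), stood at 161, 141, 204 and 229 CPM in neurons. It had the fewest UMIs in glia of the 10 members, with 1 UMI in all oligodendrocytes and none in precursors or astrocytes. Set against a floor of 3 counts over each pooled class, the precursor level was at least 7.95-fold lower than that of neurons and the astrocyte level at least 22.6-fold lower. Depth in glia therefore limits this comparison more for precursors than for astrocytes.

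Among the convertases and their partners, Pcsk1n (chrX:7919822-7924410, plus strand) was at 1890.4, 1475, 1571 and 1665 CPM in neurons and at 234.3 ± 42.1 CPM in oligodendrocytes (n = 4), 893 ± 125 CPM in precursors and 139 ± 39.6 CPM in astrocytes. Neurons were above every glial library, by 2.32 (SE 0.11) on the log2 scale against the glial mean. Scg5 (chr2:113776362-113829121, minus strand) was at 609.8 ± 74.5 CPM in neurons and 75.0 ± 20.2 CPM in oligodendrocytes, a log2 difference of 2.59. Pcsk2 (chr2:143546156-143816285, plus strand), the convertase that Scg5 assists, was at 114 ± 16.2 CPM in neurons against 14 UMIs in all oligodendrocytes and 1 in all astrocytes. Pcsk1 (chr13:75089826-75134861, plus strand) was thinly sampled everywhere, at 16.5 ± 1.4 CPM in neurons, with 1 UMI in oligodendrocytes, 2 in precursors and none in astrocytes, where its level was at least 2.10-fold lower than in neurons.

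The other genes of the regulated secretory pathway, a list of 31 genes of processing, granule formation and release, gave 16 higher and 2 lower in neurons among the 23 tested against the glial mean, where 68.1% of all genes differed and 40.9% were higher. The release machinery accounted for 7 of the 16, with 7 of 7 tested. Syt10 (5.83) and Syt5 (5.78), calcium sensors of vesicle release, and Ica1 (4.70) and Resp18 (4.65), proteins of the granule, had the highest log2 differences of those named by the rule. Of the processing enzymes outside the set 2 were higher and 2 lower of 7 tested.

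Cpe and Scg3 went the other way in astrocytes. Cpe (chr8:64592542-64693054, minus strand) stood at 3050.5, 4049, 3426 and 6004 CPM in the astrocytes of libraries 1 to 4 and at 553, 602, 622 and 744 CPM in the neurons of the same libraries. The ranges did not overlap, and neurons were lower by 7.28-fold (log2 difference -2.86, SE 0.12, adjusted p = 6.6e-126 by edgeR, lower in 4 of 4 libraries). Scg3, which encodes a granin that binds chromogranin A and granule membranes (chr9:75643189-75684056, minus strand), stood at 875, 1245, 1036.5 and 1307 CPM in astrocytes and 211, 287, 254 and 289.9 CPM in neurons. Neurons were again below in 4 of 4 libraries, by 4.85-fold (log2 difference -2.28, SE 0.13, adjusted p = 8.2e-70 by edgeR). Both calls held in all 13 alternatives, with ranges of -2.98 to -2.34 for Cpe and -2.32 to -1.89 for Scg3.

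The remainder of the set did not accompany them. Astrocytes held 1518 Cpe UMIs and 414 Scg3 UMIs, but 8 of Chgb, 6 of Scg2 and 1 each of Chga and Pcsk2, and none of Vgf or Pcsk1. Against oligodendrocytes, astrocytes were higher in Cpe (log2 difference 6.50, SE 0.18) and Scg3 (4.41, SE 0.18), where 47.8% of genes differed (23.3% higher and 24.5% lower). Pcsk1n was lower in astrocytes than in oligodendrocytes (log2 difference -1.04, SE 0.24), a call lost at a limit of 5% mitochondrial UMIs, where the difference was -0.65. Endothelial cells, sampled by 47 cells, held 4 UMIs of Cpe, 2 of Chga, 1 each of Chgb and Pcsk1n and none of the other 6. With cells thinned to 1000 UMIs each, Cpe was detected in 90.9 ± 3.62% of astrocytes and 44.2 ± 4.07% of neurons (n = 4 libraries, 120 and 2167 cells deep enough), and without thinning in 90.6% and 74.6%.

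Oligodendrocyte precursors lay between neurons and oligodendrocytes in several members. Chga stood at 197, 142, 154 and 95.5 CPM in precursors and at 1.9, 15.0, 2.4 and 10.2 CPM in oligodendrocytes, so that the lowest precursor library was above the highest oligodendrocyte library. Relative to oligodendrocytes, 7 of the 9 members tested were higher in precursors, where 39% of genes differed and 18.5% were higher. These were Chga (log2 difference 3.82, SE 0.58), Cpe (3.31, SE 0.30), Pcsk2 (3.13, SE 0.59), Chgb (2.81, SE 0.66), Scg3 (1.83, SE 0.36), Pcsk1n (1.19, SE 0.20) and Scg5 (0.99, SE 0.34). Chga and Cpe kept the call in all 13 alternatives, Pcsk1n in 12, Pcsk2 and Scg3 in 11, Chgb in 9 and Scg5 in 5. The stricter class gate, which left 40 precursors, lost all calls but those of Chga and Cpe. There Pcsk1n was at 0.63 (adjusted p = 0.098 by edgeR), Pcsk2 at 0.97 (0.64) and Scg3 at 0.95 (0.27). Chgb was at 2.19 (0.11) and Scg5 at 0.66 (0.36). Scg5 lost it without library 1 (0.95) and without library 3 (0.77). Astrocytes against precursors gave 2 members higher, Cpe (3.19) and Scg3 (2.57), and 4 lower, Chga, Pcsk2, Pcsk1n and Scg5, where 23.1% of genes differed (12.9% higher and 10.2% lower). There too Scg5 was not past the test without library 1 (-0.85) or library 3 (-1.02). With the stricter class gate Pcsk2 (-2.90, adjusted p = 0.31 by edgeR) and Scg5 (-1.02, adjusted p = 0.24) were not past it.

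UMIs of neuron and astrocyte markers were present in the precursors as well. All 7 neuron markers had UMIs in precursors, and their summed level was 871 to 1232 CPM, compared with 10735 to 13742 CPM in neurons, 157 to 292 CPM in oligodendrocytes and 277 to 629 CPM in astrocytes. Of the 7 astrocyte markers Aqp4 was at 0 in precursors, and the summed level was 947 to 1687 CPM, compared with 79.6 to 175 CPM in oligodendrocytes and 14.0 to 33.6 CPM in neurons. The part of astrocyte RNA in the precursor values of Cpe and Scg3 was not tested. In precursors with no UMI of any neuron marker, which were 31 cells with sums in 2 libraries, the difference from oligodendrocytes treated alike was 0.92 for Pcsk2 (adjusted p = 0.80 by edgeR) and 0.93 for Chgb (adjusted p = 0.80). Scg3 (1.54, adjusted p = 0.082 by edgeR) and Scg5 (0.52, adjusted p = 0.66) were not past the test there either. Chga, Cpe and Pcsk1n passed it, from 5, 16 and 31 UMIs in those cells. Between neurons and precursors, Chga was not past the test with cells thinned to 1000 UMIs (0.97, adjusted p = 0.12 by edgeR).

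A reference of 8 other neuronal genes that belong to no gate of the classes stood at 0.572% to 3.24% of its neuron level in oligodendrocytes, 1.19% to 45.4% in precursors and 2.38% to 6.27% in astrocytes. In oligodendrocytes the members above the highest reference value were Scg3 (17.1% of the neuron level), Pcsk1n (14.2%), Scg5 (12.0%), Pcsk2 (7.48%), Cpe (5.95%) and Pcsk1 (3.81%, from 1 UMI). In astrocytes they were Cpe (649%), Scg3 (434%), Scg5 (11.8%) and Pcsk1n (8.02%). In precursors they were Pcsk2 (108%), Scg3 (101%), Cpe (98.5%), Pcsk1 (90.2%, from 2 UMIs), Pcsk1n (52.2%) and Chga (52.0%). Under the stricter class gate precursors held 2 UMIs of Pcsk2 and 9 of Scg3. Levels at or below the highest reference value, which include Scg5 (38.4%) and Chgb (16.1%) in precursors and Scg2, Chga, Chgb and Vgf in oligodendrocytes and astrocytes, are not read as expression in those cells. The higher Scg5 and Chgb values of precursors beside oligodendrocytes fall under this limit. The reference holds neuronal genes only and sets no limit on astrocyte RNA. The part of astrocyte RNA in the Cpe and Scg3 values of oligodendrocytes was not tested. In barcodes under 150 genes the reference stood at 53.0% to 104% of its neuron level, Cpe at 123% and Scg3 at 103%. There 2 of the 10 members, Cpe and Pcsk1, were above the highest reference value.

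The share of cells with a UMI was also compared at equal depth. With each cell thinned to 1000 UMIs, Scg2 was detected in 59.3 ± 3.16% of neurons (78.8% unthinned) and Pcsk1n in 73.9 ± 3.72% (89.1% unthinned), where 350 shallower neurons were left out. The same share in oligodendrocytes was 1.85% for Scg2 and 20.0 ± 4.02% for Pcsk1n. The median difference between neurons and oligodendrocytes over the members was 29.2 percentage points, positive in 4 of 4 libraries, and flipping the signs of the 4 library differences in an exact permutation (two-sided) gave p = 0.125 for each member, the lower limit with 4 libraries.

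Within neurons, inhibitory and excitatory cells differed in 2 of the 10 members. GABAergic neurons (2276 cells with a UMI of Gad1, Gad2 or Slc32a1, median 3295.5 UMIs) were compared with the 89 glutamatergic neurons (Slc17a6 or Slc17a7, median 4604 UMIs). Vgf stood at 173, 145, 215 and 241 CPM in GABAergic neurons and at 47.0, 13.0, 0 and 0 CPM in glutamatergic neurons, which held 13 Vgf UMIs. The ranges did not overlap, and Vgf was 6.43-fold higher in GABAergic neurons (log2 difference 2.69, SE 0.33, adjusted p = 4.4e-14 by edgeR), a call kept in 13 of 13 alternatives. The log2 difference ranged from 2.08 to 5.15 over these, with an adjusted p of at most 0.038, and 2 glutamatergic libraries had no Vgf UMI. Of all 8877 genes tested, 2.79% differed. Pcsk2 stood at 122, 89.3, 95.1 and 119 CPM in GABAergic neurons and at 227, 350.5, 381 and 296 CPM in glutamatergic neurons, again without overlap. It was lower in GABAergic neurons by 2.58-fold (log2 difference -1.37, SE 0.20, adjusted p = 5.1e-10 by edgeR), but not past the test with cells thinned to 1000 UMIs (-0.99, adjusted p = 0.36). The other 8 members lay between -0.77 and 0.44 on the log2 scale and did not pass. Of 27 other secretory genes tested, only Resp18 passed (-0.37, adjusted p = 0.033 by edgeR).

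GABAergic neurons were then gated into subtypes by marker UMIs, and 10 subtypes named after their marker genes had sums of at least 10 cells in 3 or 4 libraries. Each was compared with the mean of the other 9. An F test over all subtypes called 8 of the 9 members tested, beside 34.9% of 3983 genes, and Vgf was the exception (adjusted p = 0.12 by edgeR). Of the 90 contrasts of a member with a subtype, 22 passed (24.4%), 11 of them higher and 11 lower, beside 7.85% of all gene contrasts (4.83% higher and 3.02% lower). Of these 22, 7 passed under every alternative that gave a value, and with cells thinned to 1000 UMIs 5 of all member contrasts passed. Scg2 passed in 5 subtypes, Pcsk2 and Pcsk1n in 4 each, Scg3, Scg5, Chga and Chgb in 2 each and Cpe in 1. All members had a highest mean level between 1.90 and 4.47 times the lowest, apart from Pcsk1, whose ratio of 13.9 rests on few UMIs.

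**Figure D2:**
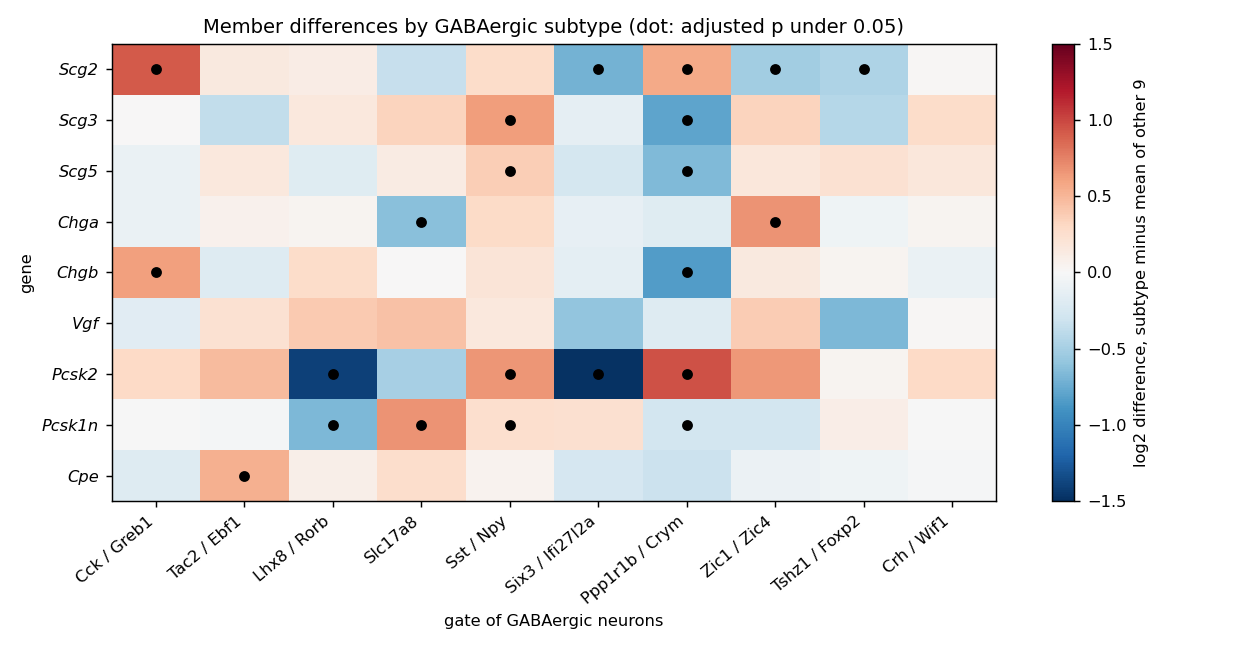
Log2 difference of each tested member between a GABAergic subtype (columns) and the mean of the other 9, coloured by size and direction, with a dot on each contrast at an adjusted p under 0.05. Scg2 passed in both directions, from 0.92 in Cck/Greb1 to -0.71 in Six3/Ifi27l2a, and Crh/Wif1 has no dot.

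Scg2 varied most reliably among the granins. It stood at 2149, 2117, 1884 and 2299.8 CPM in the Cck/Greb1 subtype, and at 845, 751, 799.6 and 677 CPM in the Six3/Ifi27l2a subtype. The lowest Cck/Greb1 library lay above the highest library of each of the other 9 subtypes among sums of at least 10 cells. Lhx8/Rorb neurons of library 3, with 6 cells, stood at 2079.7 CPM. The difference from the other subtypes was 0.92 (SE 0.09, adjusted p = 2.2e-13 by edgeR) for Cck/Greb1 and -0.71 (SE 0.12, adjusted p = 5.5e-06) for Six3/Ifi27l2a, and both were kept in all alternatives. Ppp1r1b/Crym neurons were second in mean level (1656 ± 136 CPM, log2 difference 0.57, SE 0.10). Below them, Sst/Npy (1393 ± 89.0 CPM), Tac2/Ebf1 (1336 ± 251), Lhx8/Rorb (1314 ± 286, 3 libraries) and Crh/Wif1 (1215 ± 117) differed from their neighbours by less than the SD. At the low end, Zic1/Zic4 (-0.53, SE 0.12) and Tshz1/Foxp2 (-0.46, SE 0.12) were also lower, but the latter was not past the test without library 4 (-0.36). Neither passed with cells thinned to 1000 UMIs (-0.47 for both, adjusted p = 0.13 and 0.091 by edgeR).

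Chgb was higher in Cck/Greb1 neurons, at 693, 867, 801 and 835 CPM, and lower in Ppp1r1b/Crym neurons, at 265, 211, 421 and 354 CPM. The 2 subtypes did not overlap, and their log2 differences from the rest were 0.62 (SE 0.10) and -0.83 (SE 0.13, adjusted p = 1.2e-06 by edgeR). Chgb in Ppp1r1b/Crym neurons held its call in all alternatives. In Cck/Greb1 neurons Chgb was not past the test with cells thinned to 1000 UMIs (0.45, adjusted p = 0.18 by edgeR). Chga, the other chromogranin, had a different order. It stood at 299.5, 443, 345 and 573 CPM in Zic1/Zic4 neurons and at 214, 127, 155 and 246 CPM in Slc17a8 neurons. Its differences were 0.67 (SE 0.15) and -0.63 (SE 0.19). The first was not past the test without library 4 (0.53), nor the second without library 2 (-0.46) or library 3 (-0.58). Neither Chga difference passed with cells thinned to 1000 UMIs (0.80 and -1.05, adjusted p = 0.10 and 0.19 by edgeR). Scg3 was higher in Sst/Npy neurons (0.63, SE 0.13) and lower in Ppp1r1b/Crym neurons (-0.79, SE 0.18), and neither difference passed with cells thinned to 1000 UMIs (0.29 and -0.31).

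The convertase Pcsk2 had a wider spread than the granins among the tested members. It stood at 156, 126, 174 and 218 CPM in Ppp1r1b/Crym neurons and at 39.3, 10.9, 64.0 and 44.5 CPM in Six3/Ifi27l2a neurons, without overlap. The log2 differences were 0.96 (SE 0.21) and -1.49 (SE 0.34, adjusted p = 0.0015 by edgeR), and both calls held wherever the gene was tested. Pcsk2 was also higher in Sst/Npy neurons (0.67, SE 0.18), though not without library 1 (adjusted p = 0.10). In Lhx8/Rorb neurons it rested on 10 UMIs (-1.41, SE 0.43) and was not past the test without library 1 (-1.40) or library 4 (-1.07). The chaperone gene Scg5 did not follow it, being lower in Ppp1r1b/Crym neurons at 407, 379, 277 and 429 CPM (-0.66, SE 0.12). This Scg5 difference was not past the test with cells thinned to 1000 UMIs (-0.58, adjusted p = 0.054 by edgeR). In Sst/Npy neurons Scg5 was higher (0.37, SE 0.10), but not without library 3 (0.27) or library 4 (0.30).

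Pcsk1n, the inhibitor of Pcsk1, was highest of the 10 subtypes in Slc17a8 neurons, at 2277, 2161, 2214 and 2484 CPM. These 4 libraries sat within a narrow range, and the difference of 0.68 (SE 0.09, adjusted p = 6.2e-09 by edgeR) was kept in all alternatives. Lhx8/Rorb neurons were lowest, at 1288, 844 and 856 CPM in the 3 libraries with enough cells (-0.68, SE 0.12), a call not past the test when cells were thinned (-0.76, adjusted p = 0.051). Smaller Pcsk1n differences in Sst/Npy (0.25, SE 0.08) and Ppp1r1b/Crym neurons (-0.27, SE 0.09) were each lost on leaving out any of 3 libraries. These were libraries 1, 2 and 3 for Sst/Npy (0.20 to 0.27) and libraries 1, 3 and 4 for Ppp1r1b/Crym (-0.28 to -0.25). Cpe passed in Tac2/Ebf1 neurons alone, at 621, 744, 1399.9 and 867 CPM (0.53, SE 0.11), and not at a limit of 5% mitochondrial UMIs (0.30, adjusted p = 0.19). It was also not past the test with cells thinned to 1000 UMIs (0.32, adjusted p = 0.44 by edgeR).

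Pcsk1 itself did not pass the filter on low counts among subtypes, and its levels are a description. Crh/Wif1 neurons stood at 55.5, 75.6, 66.7 and 39.4 CPM, from 47 of the 137 Pcsk1 UMIs of all GABAergic neurons. The mean levels of the other 9 subtypes lay between 4.3 and 15.7 CPM, and the 17 UMIs of Sst/Npy neurons were the next largest number. No other member passed in Crh/Wif1 neurons, where 8.29% of genes did.

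Ppp1r1b/Crym and Sst/Npy neurons had the most members past the test, and each was compared with the other subtypes and not directly with the other of the pair. In Ppp1r1b/Crym neurons Scg2 and Pcsk2 were higher and Chgb, Scg3, Scg5 and Pcsk1n lower, 6 of 9 members, where 23.2% of genes differed (13.2% higher and 9.94% lower). In Sst/Npy neurons Pcsk2, Scg3, Scg5 and Pcsk1n were higher, 4 of 9, where 3.87% of genes differed and 3.14% were higher. None of these 4 calls held in every alternative. At a limit of 5% mitochondrial UMIs Pcsk2 (0.46, adjusted p = 0.31 by edgeR), Scg5 (0.31, adjusted p = 0.079) and Pcsk1n (0.16, adjusted p = 0.43) were not past the test. Scg3 was not past it with cells thinned to 1000 UMIs (0.29, adjusted p = 0.63). Of 19 other secretory genes tested in Ppp1r1b/Crym neurons, 2 were higher and 5 lower. Cadps2 (-3.18) and Cadps (-1.54), which prime dense-core granules for release, Resp18 (-2.54) and Ece2 (-1.34), an endothelin-converting enzyme, were lower by the rule for named genes. The lysosomal protease gene Ctsl (-0.85) was also lower, and Syt10 (1.25) and Syt5 (0.70), calcium sensors of release, were higher, these 3 being named after their values were seen. In Sst/Npy neurons 2 of 19 were higher, Pam (1.34), the enzyme that amidates peptides, and Resp18 (0.62), and none lower.

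The Prkcd and Avp/Gal gates were too small for the comparison above, with 37 and 39 cells, and were compared with sums of at least 5 cells, a choice made after the cell numbers were seen. The Prkcd gate had 6 members higher and 2 lower of 9, where 18.4% of 4156 genes differed (10.3% higher and 8.08% lower). In the same fit Ppp1r1b/Crym neurons came close in number, with 2 members higher and 5 lower of 9. Vgf stood at 1028, 270.4, 812 and 1996 CPM there, from 199 UMIs, and was 5.15-fold higher than the mean of the other subtypes (log2 difference 2.37, SE 0.23, adjusted p = 1.5e-13 by edgeR). Chga stood at 1055, 484, 522 and 1655 CPM, 3.57-fold higher (1.84, SE 0.17, adjusted p = 9.9e-15 by edgeR). Library 2 was the lowest of the 4 for both genes. Chgb (1.12, SE 0.13), Scg2 (1.08, SE 0.12) and Cpe (1.05, SE 0.14) were also higher, each in 4 of 4 libraries. Scg3 (0.87, SE 0.20) was higher as well, but in 3 of 4 libraries. Scg5 was lower (-0.52, SE 0.16), as was Pcsk2 (-2.31, SE 0.60, adjusted p = 0.0052 by edgeR), which had 4 UMIs, all in library 2. Pcsk1n did not pass (0.27, adjusted p = 0.12 by edgeR). The gate had a median of 5618 UMIs per cell, near the top of the range of the subtypes (2403 to 5788.5), and library 3 gave it 6 cells and library 4 gave it 8.

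**Figure D3:**
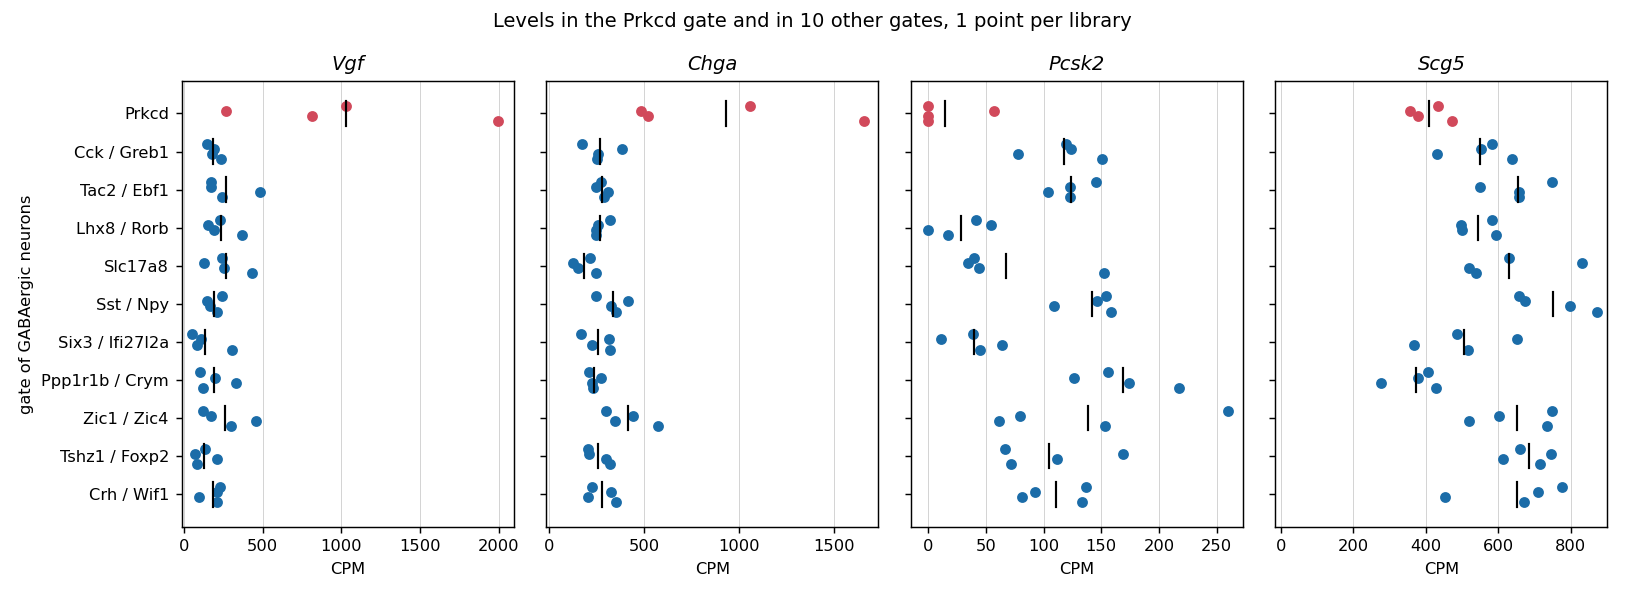
Levels of Vgf, Chga, Pcsk2 and Scg5 in CPM in the Prkcd gate and 10 other gates of GABAergic neurons, from sums of at least 5 cells, with 1 point per library and a line at the mean. In the Prkcd gate Vgf (270.4 to 1996 CPM) and Chga (484 to 1655 CPM) are high, and Pcsk2 has UMIs in library 2 only.

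Avp/Gal neurons had 3 of 9 members higher in the 3 libraries with enough cells, where 5.08% of genes differed and 3.56% were higher. Pcsk1n stood at 3310.3, 2185 and 2327 CPM in libraries 1, 2 and 4 (log2 difference 0.77, SE 0.11). Scg2 stood at 1768, 2657 and 2396 CPM (0.78, SE 0.15) and Pcsk2 at 147, 148 and 411 CPM (1.04, SE 0.34, adjusted p = 0.040 by edgeR). Library 4, which gave 5 cells, was the highest of the 3 for Pcsk2.

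The members were next set against the peptide load of each subtype, the summed CPM of 43 neuropeptide precursor genes found in the tables. Among the 10 subtypes with enough cells in 3 or 4 libraries, load ranged from 829 ± 532 CPM in Lhx8/Rorb and 872 ± 320 CPM in Zic1/Zic4 neurons to 15414 ± 6009 CPM in Sst/Npy neurons (mean ± SD), where the gate genes Sst and Npy themselves led the load. Tac2/Ebf1 (6036 ± 1156 CPM, led by Tac2 and Penk), Cck/Greb1 (5915 ± 1294 CPM, led by Cck and Cartpt), Ppp1r1b/Crym (5053 ± 1405 CPM, led by Penk and Tac1) and Crh/Wif1 (4317 ± 739.9 CPM, led by Crh and Nts) lay between. Glutamatergic neurons stood at 1399 ± 577 CPM. The small gates, with 10 cells in 2 libraries only, were Avp/Gal at 18106 ± 3314 CPM, the highest of all, led by Gal and Avp, and Prkcd at 11088 and 3543 CPM, led by Cartpt and Penk.

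Across these 10 subtypes and glutamatergic neurons, the relation of member levels to load varied with the member. Scg2 had the highest Pearson r (0.47, Spearman 0.51), with 0.28, 0.61, 0.74 and 0.24 within libraries 1 to 4. Pcsk2 (0.29), Pcsk1n (0.27) and Vgf (0.22) followed, Scg3, Pcsk1, Cpe, Scg5 and Chgb lay between -0.09 and 0.05, and Chga was at -0.21. These are descriptions over 11 kinds of neuron that share libraries. The Avp/Gal gate, which is not among the 11, had the highest mean Pcsk1n level of all gates in sums of at least 5 cells (2608 CPM), and its Scg2 level (2274 CPM) was second to that of the Prkcd gate (2613 CPM). For the mean of the standardised members r was 0.218, and it was -0.0733 without the subtype of highest load and -0.344 when precursors that serve as gate genes were left out of the load.

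**Figure D4:**
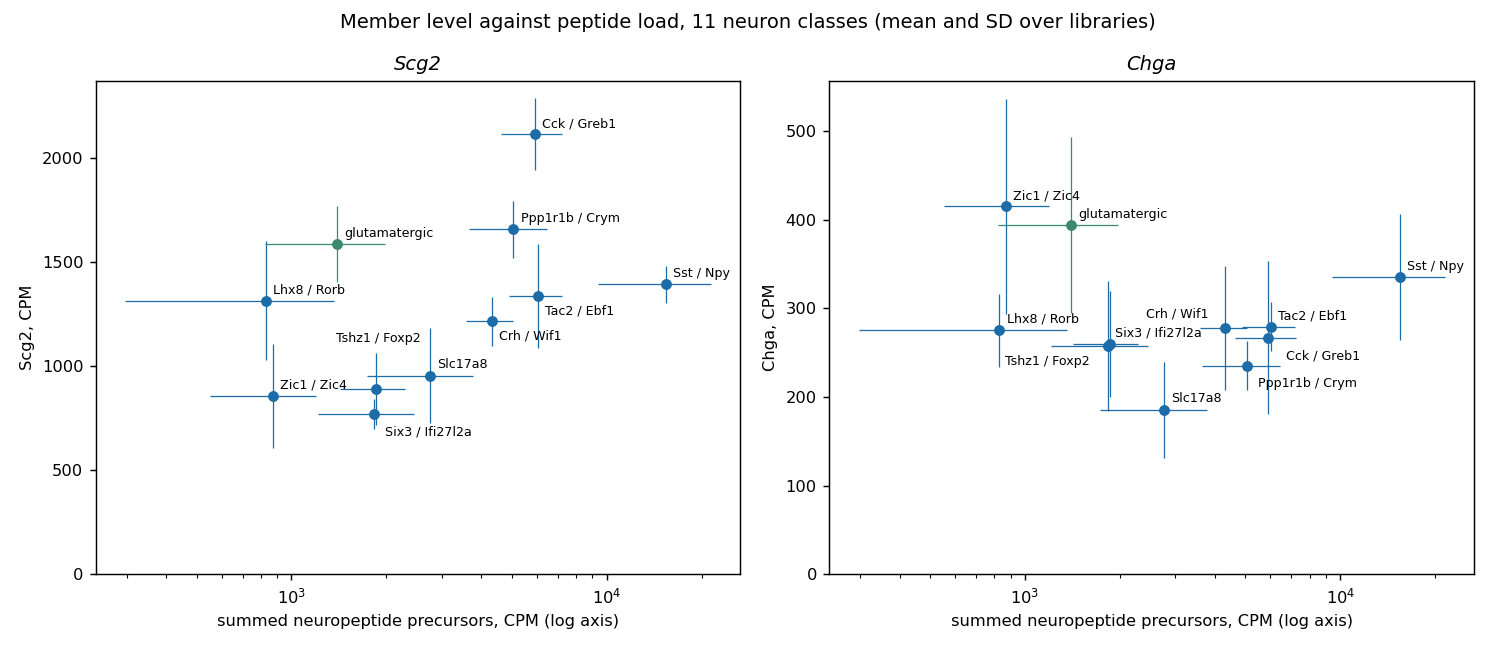
Mean level of Scg2 and of Chga in CPM against peptide load in CPM (log axis) for the 10 GABAergic subtypes and glutamatergic neurons, with bars of 1 SD over libraries. Sst/Npy neurons lie far to the right at 15414 CPM, and Cck/Greb1 neurons have the highest Scg2 level of the 11 at a load of 5915 CPM.

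Cells were also grouped by their own load, across subtypes, and counts were summed over the cells of each group. The gate genes Sst (2804 CPM) and Npy (1878 CPM) led the load of the peptide-high group, so subtypes were not held constant. Within each library, GABAergic neurons thinned to 1000 UMIs were split by precursor UMIs, and the upper tertile (606 cells, median 3822.5 UMIs) was compared with the lower (877 cells, median 3514 UMIs). Of the 10 members 5 were higher in peptide-high cells and none lower, beside 3.44% of 8420 genes that differed and 2.39% that were higher. The median log2 difference was 0.27 over the members and -0.01 over all genes.

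Scg2 and Vgf led these differences. Scg2 stood at 1668, 1811, 1805 and 1617 CPM in peptide-high cells and at 1052, 943, 1103 and 961 CPM in peptide-low cells, with no overlap. It was 1.72-fold higher (log2 difference 0.79, SE 0.05, adjusted p = 7.0e-56 by edgeR). Vgf stood at 268, 221, 292 and 317 CPM against 74.1, 100.3, 140.5 and 174 CPM, also with no overlap, and was 2.46-fold higher (1.30, SE 0.10, adjusted p = 3.1e-37 by edgeR). Both passed in 15 of 15 alternatives, within 0.58 to 0.85 for Scg2 and 1.00 to 1.47 for Vgf. These alternatives included tertiles taken within each subtype and a load without the gate peptides. Of the 2276 GABAergic neurons before thinning, 909 passed no subtype gate. Tertiles within subtypes do not hold the subtype constant for such cells, so a part of subtype composition in these differences was not tested.

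The enzymes moved less. Pcsk2 stood at 146, 122, 112 and 138.5 CPM in peptide-high cells and at 103.2, 68.9, 88.4 and 103.2 CPM in peptide-low cells (log2 difference 0.55, SE 0.12, adjusted p = 0.00049 by edgeR), with no overlap. Cpe (0.29, SE 0.06) and Scg5 (0.24, SE 0.06) were higher in 4 of 4 libraries within pairs, although the ranges of the groups overlapped for both. Pcsk2 and Cpe each passed in 10 of 15 alternatives and Scg5 in 6. Pcsk2 was not past the test with tertiles taken within each subtype (0.39, adjusted p = 0.18 by edgeR) or without the gate peptides in the load (0.16, adjusted p = 0.59). Without library 1, Cpe (0.25, adjusted p = 0.053) and Scg5 (0.19, adjusted p = 0.23) were not past the test. Without the gate peptides the Scg5 difference was -0.00092 (adjusted p = 0.997 by edgeR). Chga (0.21), Chgb (0.11), Scg3 (0.16), Pcsk1n (0.10) and Pcsk1 (0.48) did not pass.

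**Figure D5:**
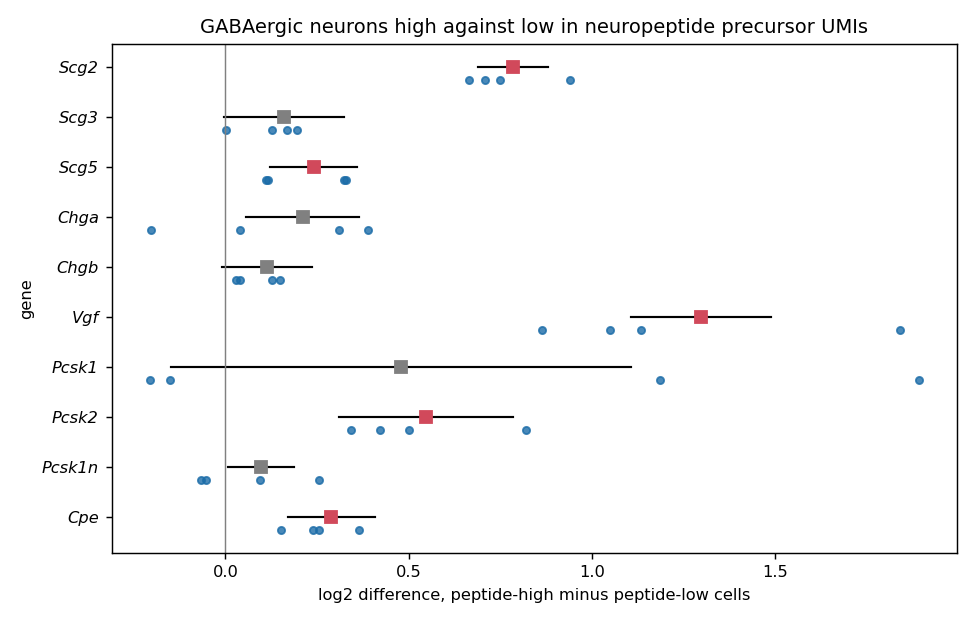
Log2 difference of each member between peptide-high and peptide-low GABAergic neurons, as the fitted value with its 95% interval (square, red where the adjusted p was under 0.05) and as 1 point per library. All 4 library points of Scg2 and of Vgf lie above 0.5, whereas those of Chga, Pcsk1 and Pcsk1n lie on both sides of 0.

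Among 26 other secretory genes tested, 4 were higher in peptide-high cells and none lower, where 2.39% of all genes were higher. Ptprn (0.77), a transmembrane protein of dense-core granules, Resp18 (0.64) and Nucb2 (0.49), the precursor of nesfatin, were higher in every library. Pam (0.67, SE 0.08), lower in library 3, was named after its values were seen.

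GABAergic neurons with a Pnoc UMI (466 cells, median 5012 UMIs) were compared with those without (1810 cells, median 2889 UMIs), since the series concerns the former. Scg2 stood at 1486, 1557, 1465 and 1323 CPM in Pnoc-positive cells and at 1272, 1255, 1411 and 1186 CPM in Pnoc-negative cells. Pnoc-positive cells were above Pnoc-negative cells in every library, although the ranges overlapped, and the log2 difference was 0.20 (SE 0.06, adjusted p = 0.035 by edgeR). Pcsk1n differed by 0.19 (SE 0.05, adjusted p = 0.032 by edgeR), at 2001, 1566, 1719.6 and 1859 CPM against 1789, 1436, 1507 and 1587 CPM. These were 2 of 10 members, both higher, beside 2.86% of 9740 genes that differed and 1.37% that were higher, and the calls held in 5 (Scg2) and 7 (Pcsk1n) of 13 alternatives. Scg2 lost its call without library 1 (0.21), library 2 (0.17) or library 4 (0.23), and Pcsk1n without library 1 (0.21), library 3 (0.20) or library 4 (0.18). The gate itself selects deeper cells, and neither passed with all cells thinned to 1000 UMIs (adjusted p = 0.45 and 0.82 by edgeR). Of 29 other secretory genes 4 were higher, Sytl4 (4.604-fold) and Cadps2 (1.68-fold) of the release machinery, Pam (1.34-fold) and Resp18 (1.33-fold).

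The members did not share 1 pattern over the 10 subtypes. Over the pairs of members, Pearson r of mean levels was highest for Scg3 with Chgb (0.66), Scg3 with Scg5 (0.63) and Scg3 with Pcsk1 (0.61). It was lowest for Chga with Pcsk1n (-0.48), and Scg2 with both Pcsk1n and Scg5 gave -0.29. Of 4267 other genes with at least 50 CPM on average, those whose pattern over the subtypes was most like the mean of the standardised members were Imp3 (r = 0.93), Wdr77 (0.89), Ctsd (0.87), Rbm8a (0.85) and H2afy (0.84). These values describe 10 points that share libraries, and none was tested.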

How the data were processed

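RNA of dissociated BNST tissue was measured by Drop-seq in 4 libraries. The deposited tables hold raw UMI counts per gene and cell barcode, per the file headers and values. The submitters' processing notes name bcl2fastq 2.18.0.12, STAR 2.4.2a and Picard 2.2.4 and the builds mm10 and GRCm38. The gene annotation, the counting strand and the rule that chose barcodes are not given in the sources used here, so reads of Scg3, Pcsk2 and Pcsk1n cannot be told from those of annotated genes on the opposite strand.

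The members and lists were chosen with earlier results of these data known. Cells with at least 400 genes and at most 10% mitochondrial UMIs were kept (4239), less 58 doublets (1.37%) called by Scrublet (scanpy 1.11.5, expected doublet rate 0.05). A class needed at least 3 UMIs of its marker list and at least 2 times those of any other list. A subtype needed at least 2 UMIs and more than any other. Counts were summed per library and class (at least 10 cells) and tested with edgeR 4.0.16 (TMM, filterByExpr, quasi-likelihood F test, Benjamini-Hochberg over all genes, threshold 0.05), with the library as a block because the sums compared come from the same pool of mice. SE was taken as the fold change over the root of F. CPM were computed from the deposited counts. Named secretory genes were at most the 4 with the greatest change per comparison that passed and moved alike in every library.

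Alternatives left out each library, changed the filters, gates, thinning and split, used DESeq2 1.42.0, dropped the block, or were added after seeing the data (sums of at least 5 cells, glia without neuron marker UMIs, neurons of at least 2000 UMIs). On counts simulated with 2-fold changes the test recovered 81.8% for classes (5565 genes), 33.5% for transmitter types (8590), 85.9% for 1 subtype (3609), 92.7% for peptide load (8256) and 78.7% for Pnoc (9579). Wrong calls were 4.97%, 3.125%, 0%, 7.33% and 3.125% of the calls, in the same order. The simulation used a spread common to all genes and no library effect. Genes left unchanged had 1 mean in all kinds of cells. For classes 187 genes were changed, whereas 68.1% of genes differed between neurons and the glial mean in the data. Recovery with that many changes was not measured. Recovery of genes with a larger spread was not measured. Intervals and floors (3 counts) cover counting error only. Other software was Python 3.11.15 and R 4.3.3.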

Additional observations from a re-analysis of the deposited data

Results flagged for a closer look

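Of 187 sets of 4 libraries searched, 8 had a library that stood apart from the others by Dixon's 95% criterion on the gap to the nearest value over the range, and chance alone would give about 1 in 20, or 9.35. The 3 best sampled come first. Scg2 in Crh/Wif1 neurons was 1039.9 CPM in library 4 (211 UMIs) beside 1267 to 1279 CPM in the others. Pcsk2 in Slc17a8 neurons was 152 CPM in library 4 (13 UMIs) beside 34.7 to 44.3 CPM, and Pcsk2 in Pnoc-positive neurons was 54.3 CPM in library 3 (19 UMIs) beside 116 to 123 CPM. The other 5 rest on 1 or 2 UMIs in the library that stood apart and none in the others. They are Chga in astrocytes of library 2 (12.6 CPM, 1 UMI), Vgf and Pcsk1 in oligodendrocytes of library 3 (2.404 CPM and 1 UMI each), Pcsk1 in precursors of library 3 (43.9 CPM, 2 UMIs) and Pcsk2 in astrocytes of library 1 (8.67 CPM, 1 UMI).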

How the results depend on the processing

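With the library block left out, which ignores the pairing of sums from 1 pool, 158 genes (248 with it) differed between transmitter types, 1668 (3125) between subtypes, 28 (290) with peptide load and 35 (279) with Pnoc. The members past the test then fell to 2 (5) for peptide load and 0 (2) for Pnoc, and Cpe against the glial mean was not past it (adjusted p = 0.064 by edgeR). Thinned to 1000 UMIs, the genes numbered 46, 523, 74 and 31 and the members 1 for transmitter types (2 without thinning), 5 for subtypes (22), 2 for peptide load and 0 for Pnoc.
DESeq2 called 132 genes for transmitter types, 40 for peptide load with 2 members, and 67 for Pnoc with 0 members. At 5% mitochondrial UMIs the genes were 2827 for neurons against glia (4271 at 10%), 150 for transmitter types, 1852 for subtypes and 136 for peptide load, with 3 members for peptide load and 1 for Pnoc. Without a filter on low counts neurons and glia differed in 6802 genes and in 10 of 10 members.
Without the gate peptides, peptide load gave 3 members and 549 genes, Scg5 turned to -0.00092, and r of the mean member with load turned to -0.344. That r was -0.0733 without the subtype of highest load. Tertiles within subtypes gave 124 genes. A stricter class gate left 1 member for Pnoc. At 500 UMIs the median difference in share was 17.0 points.
Leaving out 1 library gave 139 to 214 genes for transmitter types (139 without library 1), 3 to 6 members and 153 to 287 genes for peptide load (3 members and 183 genes without library 1, 153 genes without library 4), and 0 to 1 members and 153 to 237 genes for Pnoc (0 members without libraries 1 and 4, 153 genes without library 4). The r with load lay between 0.154 and 0.361. Cpe against the glial mean was not past the test without library 1 (0.31, adjusted p = 0.059). The causes of these changes were not tested. Over all alternatives 773 of 819 values for classes, 125 of 129 for transmitter types, 1196 of 1322 for subtypes, 125 of 146 for peptide load and 110 of 128 for Pnoc kept their direction and side of the threshold. Depth limits Pcsk1, and Vgf in glia.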
